A study of Danio rerio with 12 samples.

Results

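Among the 32520 genes counted in 12 juvenile zebrafish gonads, 60 were selected on their measured counts because their reads lay mainly in a pair of ovaries taken at 30 days post fertilization (dpf), ovaries 1 and 2 of that age, and were few everywhere else. Counts were scaled to CPM, the count of a gene divided by the total of the gonad and multiplied by 1000000. Genes had to be under 5 CPM in each of the other 10 gonads, which left 15231 genes. These were ordered by a ratio, the lower CPM of the pair plus 1 divided by the highest CPM of the other 10 gonads plus 1, and the first 60 were taken. The genes were thus chosen by their CPM in all 12 gonads, and the levels below describe them without testing them.

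The gonads came from AB strain fish that carried the transgene Tg(piwil1-egfp-nos3UTR)ihb327Tg, in which the promoter of the germ cell gene piwil1 is joined to green fluorescent protein. No treatment is given for any group. The younger fish, of 25 dpf, gave 2 ovaries and 4 testes, and the older ones gave 3 of each, with a single gonad per sample. All groups shared strain and transgene, so sex and age are the differences that the labels give. The count table names gonads as big or small. Big was read as ovary and small as testis, and the numbers of the columns were read as the replicate numbers.

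The juvenile zebrafish ovary fills with oocytes that enter meiosis, stop in prophase and then grow. A growing oocyte stores RNA and protein for the embryo and is wrapped in an egg coat of zona pellucida proteins, and it is surrounded by somatic follicle cells that later make steroids. Oocytes of one juvenile ovary do not grow in step, and an ovary can hold several stages at once. The labels give no stage, size or histology for a single gonad.

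Total counts were 4471588 to 5331223 per gonad, so that 1 count was worth 0.188 to 0.224 CPM and 3 counts 0.563 to 0.671 CPM. Between 22117 and 23829 genes had a count in each gonad. In all 13 pairs of gonads of one group the counts differed by more than counting noise, with a chi-square per degree of freedom of at least 10.2, so no gonad was counted as a repeat of another.

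Of the 60 genes, 52 have a symbol and 8 have only an Ensembl identifier. Of the symbols, 22 are clone or placeholder names and 30 are gene names, 6 of them for small noncoding RNAs. The ratio that ordered the genes was 16.0 for the first gene, 3.54 for the second and 1.54 for the last, with a median of 1.88. It was over 2 for 22 genes, over 3 for 2 and over 4 for 1. The list thus holds 1 gene that stood far apart and a long series of genes with small ratios.

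**Figure D1:**
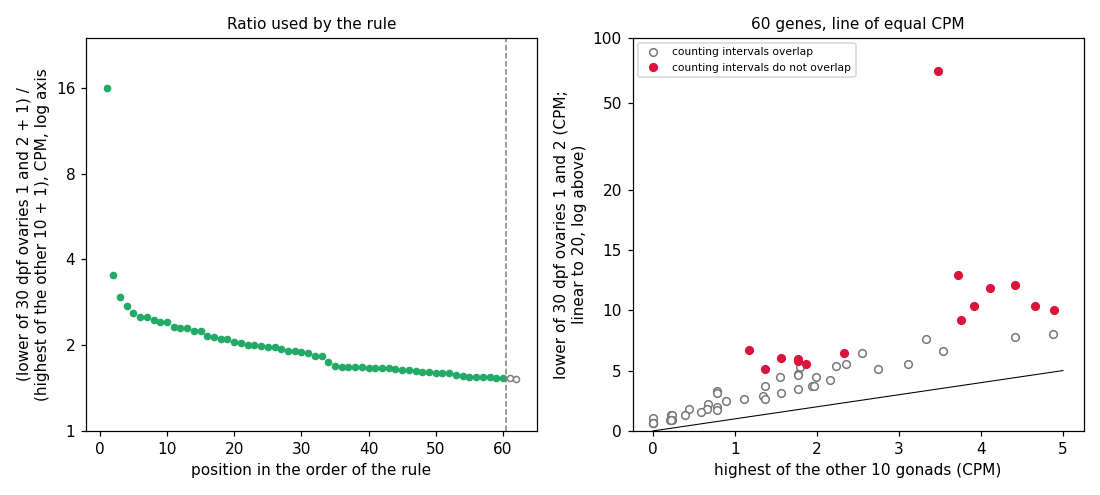
Left, the ratio used to order the genes (log axis) against their position for the 60 genes (filled) and the next 2 (open, beyond the dashed line). Right, the CPM of the lower of 30 dpf ovaries 1 and 2 (linear to 20, log above) against the highest CPM of the other 10 gonads. Red points are the 15 genes whose counting intervals did not overlap and open points the other 45. The first gene lies at 16.0 and the second at 3.54, after which the ratio declines slowly to 1.54.

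The levels were low. In the lower of the pair a gene had 3 to 316 counts, with a median of 18, and the second highest value was 58. In that ovary 19 genes had 10 or fewer counts. In the other 10 gonads no gene exceeded 26 counts, 17 genes had at most 3 counts in each, and 5 had none. The exact 95% Poisson interval of the lower of the pair was clear of that of the highest other gonad for 15 genes, which is also the number that met this among the 10824 genes under 5 CPM with any count (0.139%). The intervals cover counting error only, and reads of amplified cDNA are not independent molecules. The order of the genes and the choice of the highest gonad used these same counts.

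Summed over the 60 genes, the level was 408 CPM in 30 dpf ovary 1 and 351 CPM in ovary 2. It was 71.1 CPM in 30 dpf ovary 3, 49.5 and 76.1 CPM in 25 dpf ovaries 1 and 2, and 24.2 to 38.7 CPM in the 7 testes. The third 30 dpf ovary thus lay between the 25 dpf ovaries, and all 5 ovaries lay above all testes. Without the first gene the sums were 331 and 280 CPM in the pair, 69.8 CPM in ovary 3, 47.9 and 73.6 CPM at 25 dpf and 22.1 to 37.0 CPM in the testes, with the same order of ovaries. In whole gonads, more cells of a type and more RNA per cell cannot be told apart.

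**Figure D2:**
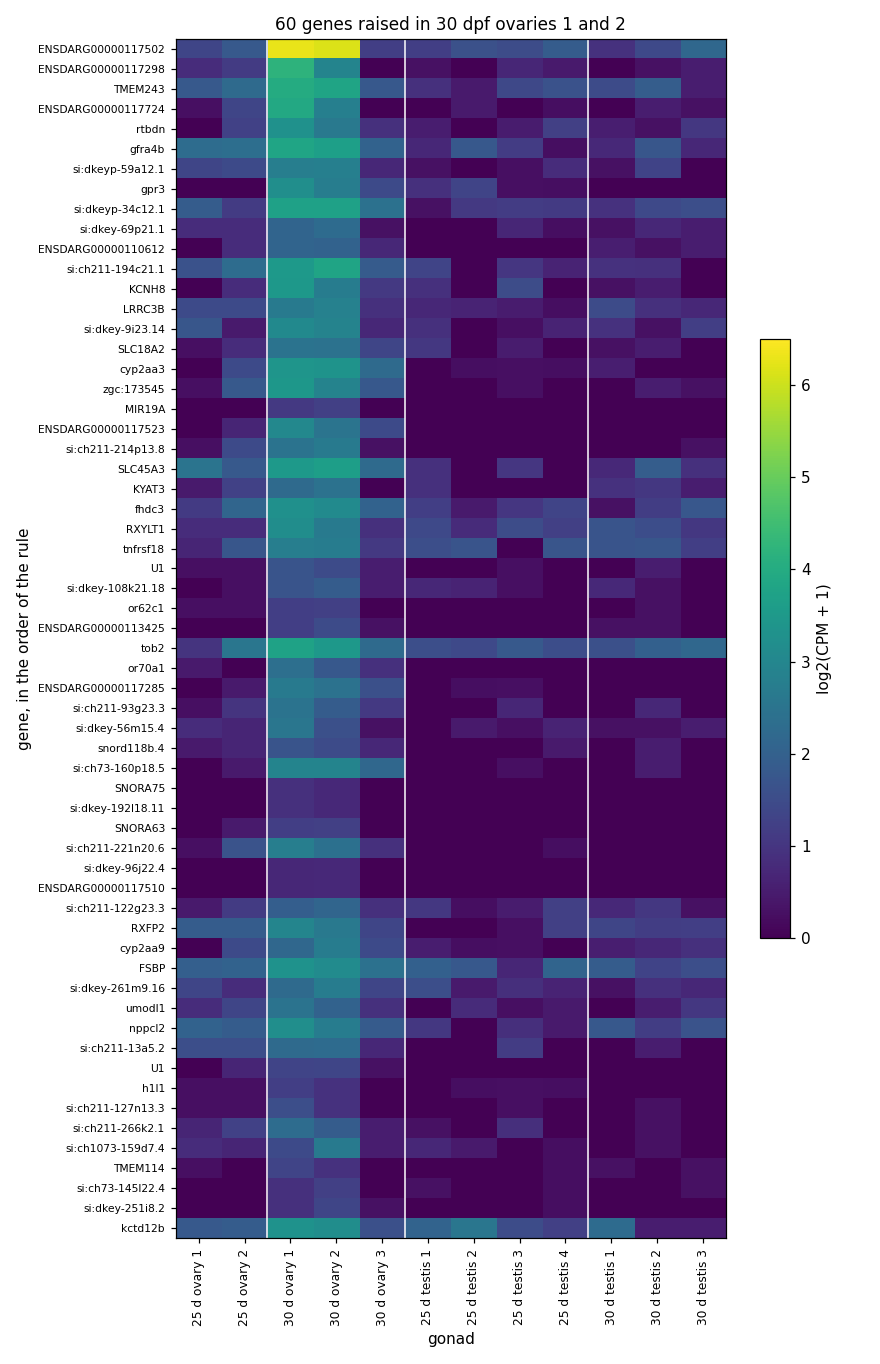
Level of each of the 60 genes (rows, in the order of the rule) in each of the 12 gonads (columns, d for dpf), as log2(CPM + 1). White lines separate the 4 groups. The columns of 30 dpf ovaries 1 and 2 are the brightest in every row, and 14 of the genes were at 0 in 30 dpf ovary 3.

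The first gene, ENSDARG00000117502, has no symbol in the tables used here. It had 351 counts in 30 dpf ovary 1 and 316 in ovary 2, 6 in ovary 3, 8 and 13 in the younger ovaries, and 4 to 16 (median 9) in the testes. In CPM the pair stood at 77.1 and 70.5, against 1.33 in the third ovary of the same age. The lower of the pair was 20.3-fold above the highest other gonad, which was 30 dpf testis 3 at 3.47 CPM. Every gonad had some reads of this gene, and the third ovary of 30 dpf lay within the range of the testes.

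A gene outside the 60 had a similar distribution at a higher level. qdprb.3 (ENSDARG00000090118), named for quinoid dihydropteridine reductase, the enzyme that recycles the cofactor tetrahydrobiopterin, had 1145 and 1010 counts in 30 dpf ovaries 1 and 2 and 4 in ovary 3. 25 dpf ovaries 1 and 2 had 6 and 8 counts and the testes had 0 to 48 (median 1). It was kept out of the 60 by 30 dpf testis 2, at 10.3 CPM, and its ratio of 20.1 was above that of the first gene. Both genes were thus high in the pair and near the level of the other gonads in 30 dpf ovary 3.

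**Figure D3:**
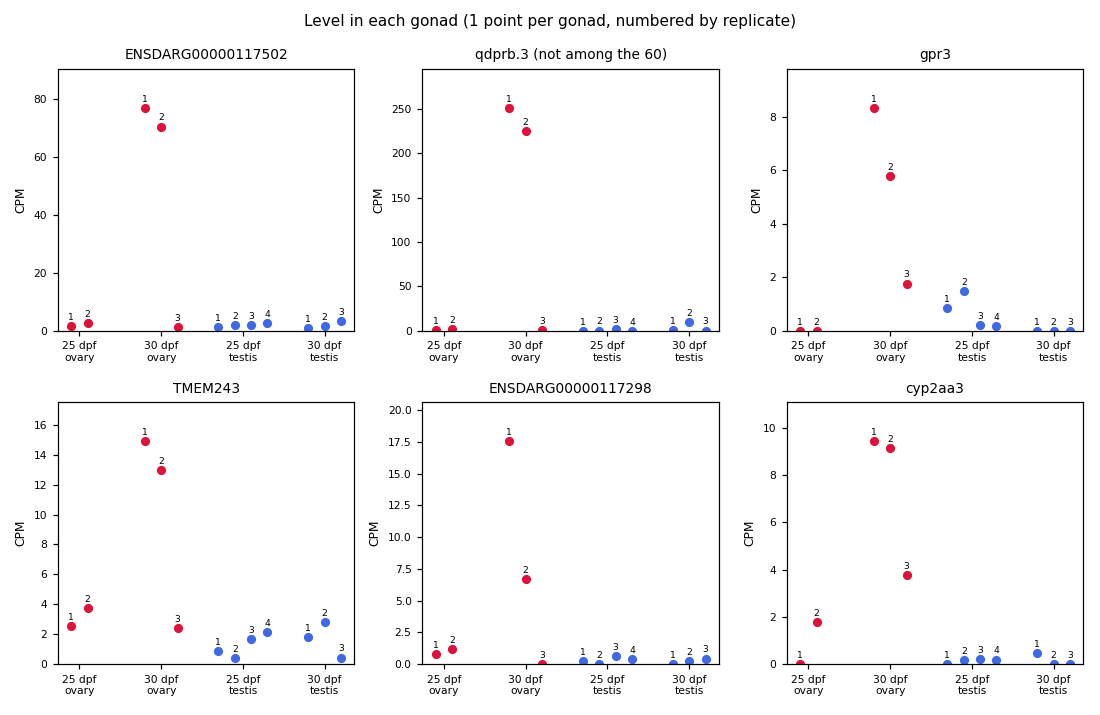
CPM (linear axes from 0, a scale for each panel) of 6 genes in each gonad, 1 point per gonad with its replicate number, ovaries in red and testes in blue. ENSDARG00000117502, at 77.1 and 70.5 CPM in the pair, and qdprb.3, at 251 and 225 CPM, had 30 dpf ovary 3 at 1.33 and 0.883 CPM, whereas cyp2aa3 had it at 3.75 CPM, above the 25 dpf ovaries and the testes.

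Among receptors and other signalling genes, gpr3 (ENSDARG00000094860) encodes a receptor that, in mouse oocytes, keeps cyclic AMP high and so holds meiosis in prophase. Its counts were 38 and 26 in the pair, 8 in 30 dpf ovary 3, 0 and 0 in the younger ovaries, and 0 to 8 (median 1) in the testes. In CPM the 30 dpf ovaries were the highest 3 gonads for gpr3, although 25 dpf testis 2 also had 8 counts, as ovary 3 did. The zero in both 25 dpf ovaries allowed up to 3 counts in each.

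gfra4b (ENSDARG00000074582), a co-receptor of the family that binds ligands related to glial cell line-derived neurotrophic factor, had 60 and 53 counts in the pair. It had 14 counts in ovary 3, 20 and 21 at 25 dpf, and 1 to 13 (median 3) in the testes. All 5 ovaries were above all 7 testes for gfra4b. RXFP2 (ENSDARG00000019660), in mammals the receptor of the hormone INSL3, had 31 and 23 counts in the pair and 7 in ovary 3, fewer than the 14 and 14 at 25 dpf and level with the highest testes at 7. For nppcl2 (ENSDARG00000116713), named after C-type natriuretic peptide, the counts were 38 and 25 in the pair, 12 in ovary 3, 16 and 14 at 25 dpf, and 0 to 11 in the testes. In mouse ovaries C-type natriuretic peptide comes from follicle cells and helps hold oocytes in meiotic prophase. tnfrsf18 (ENSDARG00000076800), a receptor of the tumour necrosis factor family known from mammalian T cells, had 27 and 25 counts in the pair and up to 12 in both an ovary and testes at 25 dpf, so ovaries and testes overlapped for it outside the pair.

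Channels and transporters formed another group. KCNH8 (ENSDARG00000062640), a voltage-gated potassium channel, had 46 and 25 counts in the pair, 5 in ovary 3, 0 and 4 at 25 dpf, and 0 to 9 in the testes. SLC18A2 (ENSDARG00000015110), which loads monoamines into vesicles, had 21 and 20 counts in the pair and 7 in ovary 3, against 1 and 4 at 25 dpf and 0 to 5 in the testes. SLC45A3 (ENSDARG00000075975), a solute carrier, had 47 and 52 counts in the pair, 17 in ovary 3, 24 and 13 at 25 dpf, and 0 to 13 in the testes. The third ovary exceeded both 25 dpf ovaries for KCNH8 and SLC18A2 and lay between them for SLC45A3. kctd12b (ENSDARG00000037507), whose mammalian relative KCTD12 is an auxiliary subunit of GABA-B receptors, came last of the 60 with 41 and 36 counts in the pair and 26 in 25 dpf testis 2.

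Enzymes included a pair of neighbouring genes. cyp2aa3 (ENSDARG00000103347) and cyp2aa9 (ENSDARG00000098890) are cytochrome P450 genes of one subfamily and lie 3 places apart in the gene order of the RefSeq GRCz12tu assembly. cyp2aa3 had 43 and 41 counts in 30 dpf ovaries 1 and 2, 17 in ovary 3, 0 and 9 at 25 dpf, and 0 to 2 in the testes. For cyp2aa9 the counts were 16 and 25 in the pair, 8 in ovary 3, 0 and 9 at 25 dpf, and 0 to 4 in the testes. In both genes 25 dpf ovary 1 had no reads, 25 dpf ovary 2 stood above the testes, and the 3 ovaries of 30 dpf were the highest in CPM. For cyp2aa9 this was a near tie, with 30 dpf ovary 3 at 1.767 CPM and 25 dpf ovary 2 at 1.761 CPM. How reads shared between such similar genes were divided by the counting was not tested. KYAT3 (ENSDARG00000102423), a kynurenine aminotransferase, had 17 and 20 counts in the pair and none in ovary 3, with 2 and 7 at 25 dpf. RXYLT1 (ENSDARG00000063414), which in mammals adds a xylose to the sugar chain of dystroglycan, had 37 and 24 counts in the pair but only 4 in each of the other 3 ovaries and 4 to 10 in the testes. For RXYLT1 the 3 other ovaries were thus level with the lowest testis in counts. In CPM they were just above it, at 0.776 to 0.883 CPM against 0.750 CPM.

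tob2 (ENSDARG00000102795), of a family of antiproliferative proteins that recruit deadenylases, had 57 and 45 counts in the pair, 17 in ovary 3, 5 and 25 at 25 dpf, and 9 to 16 (median 10) in the testes. Every gonad had at least 5 counts of this gene, and the 25 dpf ovaries lay on either side of the testes. fhdc3 (ENSDARG00000069129), named for a formin homology domain of the kind that assembles actin, had 39 and 34 counts in the pair, 14 in ovary 3, 6 and 17 at 25 dpf, and 1 to 11 in the testes. FSBP (ENSDARG00000101437), named in humans for binding a fibrinogen silencer, had 41 and 35 counts in the pair, 20 in ovary 3, 15 and 16 at 25 dpf, and 3 to 17 in the testes, the smallest distance from the other gonads of these 3 genes. umodl1 (ENSDARG00000068923), named as uromodulin-like, had 21 and 14 counts in the pair, 4 in ovary 3, 4 and 8 at 25 dpf, and 0 to 5 in the testes.

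Other named genes near the top of the order were TMEM243 and LRRC3B, which encode membrane proteins, and rtbdn. TMEM243 (ENSDARG00000042214) had 68 and 58 counts in the pair, 11 in ovary 3, 13 and 19 at 25 dpf, and 2 to 13 (median 8) in the testes. rtbdn (ENSDARG00000103413), for a riboflavin-binding protein known from the mouse retina, had 40 and 23 counts in the pair, 4 in ovary 3, 0 and 7 at 25 dpf, and 0 to 7 in the testes. LRRC3B (ENSDARG00000063215) had 24 and 28 counts in the pair, 4 in ovary 3, 9 and 9 at 25 dpf, and 1 to 8 in the testes. In TMEM243 and LRRC3B the third 30 dpf ovary was below both 25 dpf ovaries.

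Among the genes without a descriptive name, ENSDARG00000117298 had 80 and 30 counts in the pair, 0 in ovary 3, 4 and 6 at 25 dpf, and 0 to 3 in the testes. ENSDARG00000117724 had 64 and 27 counts in the pair, 0 in ovary 3, 1 and 8 at 25 dpf, and 0 to 2 in the testes. Both were over 2-fold higher in ovary 1 than in ovary 2 and had no read in ovary 3.

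si:dkeyp-34c12.1 (ENSDARG00000071083) had 55 counts in each of the pair, 20 in ovary 3, 14 and 6 at 25 dpf, and 1 to 9 (median 6) in the testes, so that the 30 dpf ovaries were the highest 3 gonads. si:ch211-194c21.1 (ENSDARG00000092109) had 47 and 58 counts in the pair, 12 in ovary 3, 11 and 20 at 25 dpf, and 0 to 7 in the testes, with all ovaries above all testes. si:dkeyp-59a12.1 (ENSDARG00000097921) had 27 counts in each of the pair, 3 in ovary 3, 8 and 9 at 25 dpf, and 0 to 7 in the testes. For this gene the third ovary fell within the range of the testes.

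The remaining genes of the first 15 had fewer reads. si:dkey-9i23.14 (ENSDARG00000093289) had 34 and 29 counts in the pair and 12 in 25 dpf ovary 1, with 0 to 6 in the other 9 gonads. si:dkey-69p21.1 (ENSDARG00000096869) had 15 and 17 counts in the pair and 0 to 4 elsewhere, and ENSDARG00000110612 had 15 and 14 in the pair and 0 to 4 elsewhere. At these depths a difference of a few counts among the other gonads was not detectable.

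After the first 15, another 21 genes had a placeholder symbol or none, with ratios of 1.54 to 2.11. Their lower count of the pair was 3 to 30, no other gonad had more than 16 counts, and 4 of them had no read in any testis. zgc:173545 (ENSDARG00000079534) had 45 and 29 counts in the pair, 11 in ovary 3, 1 and 13 at 25 dpf, and 0 to 2 in the testes. ENSDARG00000117523 had 33 and 21 counts in the pair, 8 in ovary 3, 0 and 3 at 25 dpf and none in the testes. si:ch73-160p18.5 (ENSDARG00000099967) had 30 counts in each of the pair, 16 in ovary 3, 0 and 2 at 25 dpf, and 0 to 2 in the testes. For the last 2 of these genes the 30 dpf ovaries were the highest 3 gonads, whereas for zgc:173545 25 dpf ovary 2 was above ovary 3.

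Small noncoding RNA genes and odorant receptors were among the genes with the fewest reads. MIR19A (ENSDARG00000081883), a microRNA locus, had 5 and 6 counts in the pair and 0 in the other 10 gonads, each of which allows up to 3 counts. SNORA75 (ENSDARG00000083582), a guide RNA for pseudouridylation, had 4 and 3 counts in the pair and 0 elsewhere, at the limit of what the depth can show. The libraries were made from amplified cDNA, and reads at a microRNA locus do not measure the mature microRNA.

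Of the copies of the U1 spliceosomal RNA among the 60, ENSDARG00000109780 had 10 and 8 counts in the pair with 0 to 2 elsewhere, and ENSDARG00000116114 had 7 and 7 with 0 to 3 elsewhere. SNORA63 (ENSDARG00000115262) had 6 and 6 counts in the pair, and snord118b.4 (ENSDARG00000080633), a copy of the U8 RNA of ribosomal RNA processing, had 10 and 8. U1 and U8 have many near-identical copies, and reads that fit several of them could not be assigned with certainty. The odorant receptor gene or70a1 (ENSDARG00000053817) had 19 and 11 counts in the pair, 4 in ovary 3, 2 and 0 at 25 dpf and none in the testes, and or62c1 (ENSDARG00000105827) had 6 in each of the pair and at most 1 elsewhere.

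SNORA75, MIR19A, si:dkey-192l18.11, si:dkey-96j22.4 and ENSDARG00000117510 were the 5 genes at 0 in the other 10 gonads. The last 3 of these had 3 or 4 counts in each of the pair, which is at or next to the limit that a count of 0 allows in another gonad. h1l1 (ENSDARG00000074012) and TMEM114 (ENSDARG00000038089) had 4 counts in ovary 2 and at most 1 count outside the pair. A change of 1 read would move such genes in the order.

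Within the pair, 36 genes were higher in ovary 1 and 24 in ovary 2. The higher of the pair was a median of 1.23-fold above the lower, and 44 genes were within 1.5-fold. The widest gap was 3.05-fold, in si:ch1073-159d7.4 (ENSDARG00000105359), with 8 counts in ovary 1 and 24 in ovary 2. Most of the genes were therefore at similar levels in both ovaries, as taking the lower of the pair favours.

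The third 30 dpf ovary did not take a fixed place. It was above both 25 dpf ovaries for 18 genes, below both for 19, and between them or level with one of them for 23. In CPM, all 3 ovaries of 30 dpf exceeded the other 9 gonads for 14 genes, among them gpr3, SLC18A2, cyp2aa3, or70a1 and FSBP. That was so for 1.75% of the 10824 genes under 5 CPM with a count. This share cannot be read against the 14, because the choice already placed ovaries 1 and 2 at the top. For cyp2aa9, also of the 14, it was a near tie. In counts, ovary 3 was only level with another gonad for gpr3 (8), si:ch211-93g23.3 (5), snord118b.4 (3), the U1 copy ENSDARG00000109780 (2) and si:dkey-251i8.2 (1). Another 14 genes, ENSDARG00000117298, ENSDARG00000117724 and KYAT3 among them, were at 0 in ovary 3.

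Between ovaries and testes outside the pair, the separation was partial. In CPM, 30 dpf ovary 3 was above all 7 testes for 25 of the 60 genes. For 25 dpf ovary 2 the number was 29 and for 25 dpf ovary 1 it was 15. Over the 10824 genes under 5 CPM with a count, the same was so for 12.3%, 12.7% and 12.5%. The choice bears on these shares too, since it held the other 10 gonads under the pair. All 5 ovaries exceeded all 7 testes in CPM for 4 genes, gfra4b, si:ch211-194c21.1, si:ch211-221n20.6 and nppcl2. Over those 10824 genes the share was 1.16%. It cannot be read against the 4, because the choice had already put 30 dpf ovaries 1 and 2 above the testes. For si:ch211-221n20.6 this was a tie in counts, with 1 count each in 25 dpf ovary 1 and 25 dpf testis 4. The lowest ovary and highest testis had 14 and 13 counts for gfra4b and 12 and 11 for nppcl2.

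The highest of the other 10 gonads was most often an ovary. It was 25 dpf ovary 2 for 21 genes, 30 dpf ovary 3 for 14 and 25 dpf ovary 1 for 5. A testis was the highest for 15 genes, 10 of them with a 30 dpf testis, and the last 5 genes had no read there. 25 dpf ovary 2 and 30 dpf ovary 3 were thus the gonads that most often limited the ratio.

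The end of the list was not a break in the values. The last genes inside were si:dkey-251i8.2 with a ratio of 1.538 and kctd12b with 1.537. The first genes outside were DOCK4, a guanine nucleotide exchange factor for small GTPases, with 1.536 and si:ch211-13b16.1 with 1.526. Of the 15231 genes under 5 CPM outside the pair, 395 (2.59%) had a ratio over 1. Over all 32520 genes, without the limit of 5 CPM, 1628 had a ratio over 1, 63 over 2 and 4 over 4.

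Beside qdprb.3, the genes of largest ratio that were over 5 CPM in another gonad included si:dkey-9c18.3 (ENSDARG00000096579), with 365 and 243 counts in the pair, 4 in ovary 3, 2 and 27 at 25 dpf and at most 1 in a testis. si:dkey-229d11.3 (ENSDARG00000093255) had 1676 and 1289 counts in the pair, 89 in ovary 3, 96 and 276 at 25 dpf and 2 to 36 in the testes. RYR2 (ENSDARG00000003706), a calcium release channel, had 179 and 153 counts in the pair and 4 in ovary 3, with 51 and 2 at 25 dpf. In the testes RYR2 had 1 to 31 counts (median 6). In each of these genes 25 dpf ovaries differed from each other by a larger fold than the pair did. At the highest level, si:ch1073-75o15.3 (ENSDARG00000095741) had 12619 and 11673 counts in the pair, 902 in ovary 3, 72 and 4141 at 25 dpf and 9 to 103 in the testes.

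The design asks how ovaries of 25 and 30 dpf differed and how ovaries and testes differed at 30 dpf. Both were tested over 19292 genes that passed a filter on low counts, with the quasi-likelihood test of edgeR on all 12 gonads and p-values adjusted by the Benjamini-Hochberg method. Of the 60 genes 42 passed the filter and 18 had too few reads. From 25 to 30 dpf no gene of the 19292 was called as changed in ovaries (0%), and so none of the 60. At an unadjusted p under 0.05, 1154 genes (5.98%) were higher at 30 dpf and 1061 (5.5%) were lower, 16 of the higher being among the 60, and DESeq2 called 115 higher and 67 lower, 1 of the higher being ENSDARG00000117502. Without 30 dpf ovary 3, edgeR called 1 gene higher at 30 dpf, again ENSDARG00000117502, and the 30 dpf ovaries were then the very pair by which this gene was put first. The comparison by age uses the gonads that chose the 60 genes, so neither the 16 nor the calls of this gene carry weight of their own.

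At 30 dpf, the ovaries had 3601 genes (18.7%) called higher, and the testes had 3188 (16.5%), which upper-quartile scaling turned into 2971 and 4069. Of the 42 tested members 28 were called higher in ovaries and none in testes. These calls use the gonads by which the genes were chosen, and genes with reads only in the pair could pass the filter only through it, so the count carries no weight of its own. It was 8 of 19 tested without 30 dpf ovary 1, 9 of 19 without ovary 2 and 39 of 42 without ovary 3. With DESeq2, and also without 25 dpf testis 2, it was 34 of 42. It was 16 without 30 dpf testis 1 or without testis 3, and 13 of 16 when only the 30 dpf gonads were fitted. The median log2 difference of the 42 genes was 1.93 for age in ovaries and 3.05 for ovary against testis, against 0.02 and -0.11 over all genes tested. These medians, like the calls, follow from the choice of genes high in the pair.

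None of the 60 belongs to the lists of known gonad genes used for comparison, of whose 152 genes only 24 were under 5 CPM in the other 10 gonads and could have been chosen. These lists describe the same gonads by other genes. Egg coat genes summed to 26226 and 25415 CPM in the pair, 17771 CPM in 30 dpf ovary 3, 9957 and 15201 CPM in the 25 dpf ovaries and 187 to 1938 CPM in the testes. Of 21 tested egg coat genes, 18 were called higher in ovaries than in testes of 30 dpf (18.7% of all genes tested). Higher CPM in both of the pair than in each of the other 3 ovaries was found for 17 (10.9% of all genes tested). zpax1, a coat protein of the egg envelope, was at 5209 and 4848 CPM in the pair, 3497 CPM in ovary 3, 2138 and 3193 CPM at 25 dpf and 74.3 to 651 CPM in testes, with a log2 difference between ovaries and testes at 30 dpf of 4.65 (SE 0.75, edgeR adjusted p = 0.0010).

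**Figure D4:**
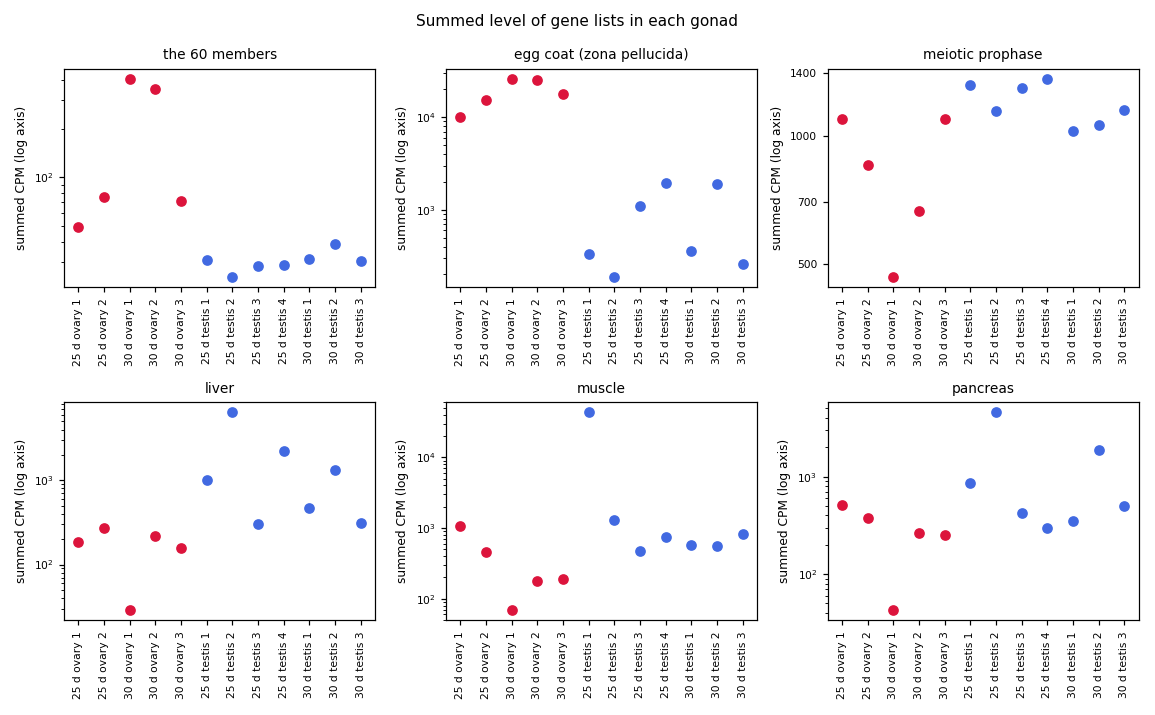
Summed CPM (log axes, a scale for each panel) of the 60 genes and of 5 gene lists in each gonad (d for dpf), ovaries in red and testes in blue. The pair of 30 dpf ovaries has the highest sums of the 60 genes and of egg coat genes, 26226 and 25415 CPM, and the lowest sums of meiotic prophase genes, 466 and 665 CPM. 30 dpf ovary 1 has the lowest liver, muscle and pancreas sums.

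Many regulators of oocytes and germ plasm went the same way. Of 34 tested, 30 were higher in ovaries than in testes (18.7% of all genes tested). In both of the pair, 20 were higher and 1 lower than in the other 3 ovaries (10.9% and 25.4% of all genes tested). CCNB1, cyclin B1 of the M phase, was at 2317 and 1613 CPM in the pair, 1104 CPM in ovary 3 and 342 and 733 CPM at 25 dpf, with a log2 difference from testes at 30 dpf of 4.11 (SE 0.43, edgeR adjusted p = 0.0002). buc, which organizes the germ plasm body of the oocyte, was at 1779 and 1532 CPM in the pair, 1322 CPM in ovary 3 and 905 and 1141 CPM at 25 dpf. PIWIL1 did not put the pair first, with 2349 and 2137 CPM against 2682 CPM in ovary 3. DDX4, PIWIL2, TDRD6, tdrd7a and pld6, named after their values were seen, did not put the pair first either. DND1, named in the same way, was lower in both of the pair than in the other 3 ovaries.

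Summed, meiotic prophase genes were lowest in the pair among the ovaries, and 30 dpf ovary 3 was level with the highest 25 dpf ovary. They summed to 466 and 665 CPM in the pair, 1092 CPM in ovary 3, 1091 and 854 CPM at 25 dpf and 1027 to 1360 CPM in the testes. Of 17 tested, 6 were lower in both of the pair than in the other 3 ovaries (25.4% of all genes tested) and 1 was higher (10.9%). HORMAD1, a protein of the meiotic chromosome axis, was at 62.3 and 148 CPM in the pair, 251 CPM in ovary 3 and 340 and 240 CPM at 25 dpf, and it did not differ between ovaries and testes by the test (log2 difference -0.66, SE 0.36, edgeR adjusted p = 0.17).

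Genes of follicle cells and steroid synthesis were mixed. Of 33 tested, at 30 dpf 5 were called higher in ovaries and 10 were called higher in testes (18.7% and 16.5% of all genes tested). In both of the pair, 4 were higher and 6 lower than in the other 3 ovaries (10.9% and 25.4% of all genes tested). CYP11A1 (ENSDARG00000002347), the enzyme of the first step of steroid synthesis, was at 817 and 683 CPM in the pair, 435 CPM in ovary 3 and 60.4 and 144 CPM at 25 dpf, with a log2 difference from testes of 6.34 (SE 0.85, edgeR adjusted p = 0.0004). The other gene of the CYP11A1 symbol, ENSDARG00000092696, was named after its values were seen and did not put the pair first. It was at 23.9 and 11.2 CPM in the pair, 20.8 CPM in ovary 3 and 21.0 and 12.5 CPM at 25 dpf. Its log2 difference from testes was -1.01 (SE 0.62, edgeR adjusted p = 0.23). hsd3b2, which acts later in steroid synthesis, was at 112 and 126 CPM in the pair, 54.3 CPM in ovary 3 and 16.3 and 38.7 CPM at 25 dpf. Other steroid genes had other orders. CYP17A1, which acts between progestins and androgens, was at 151 and 91.1 CPM in the pair, 67.6 CPM in ovary 3 and 122 and 179 CPM at 25 dpf. hsd17b1, for a dehydrogenase of sex steroids, was at 60.8 and 49.3 CPM in the pair and 94.3 CPM in ovary 3. CYP19A1 (ENSDARG00000041348), the aromatase that makes estrogens, was named after its values were seen and had the pair lowest of the ovaries, at 6.81 and 9.15 CPM against 47.5 CPM in ovary 3 and 17.1 and 32.5 CPM at 25 dpf.

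Yolk and egg uptake genes, 14 tested, had 6 higher in ovaries and 2 in testes. In both of the pair, 5 of them were higher and 2 lower than in the other 3 ovaries. The vitellogenin (yolk) genes vtg1 to vtg7, named after their values were seen, did not exceed 3.95 CPM in any gonad. Of these, only vtg3 was tested, and it was not called. Testis genes had 7 of 18 higher in testes and none higher in ovaries. In both of the pair, 7 of these were lower and 1 higher than in the other 3 ovaries. Over all genes tested, 18.7% were called higher in ovaries and 16.5% in testes, and 10.9% were higher and 25.4% lower in both of the pair. By these lists, the pair had higher summed CPM of egg coat and oocyte genes than the other ovaries. The summed CPM of meiotic prophase genes was lower in the pair. Of the 17 tested, though, only 6 were lower in both of the pair and 1 higher, beside 25.4% and 10.9% over all genes tested. 30 dpf ovary 3 lay nearer to the 25 dpf ovaries for meiotic genes. These were CPM without TMM scaling, whose factors were 0.818 and 0.855 in the pair and 0.957 to 0.984 in the other 3 ovaries. Scaling by these factors would raise the pair relative to those ovaries, and the list comparisons within ovaries were not repeated with it. No age difference of a listed gene passed the edgeR test in ovaries, while DESeq2 called PIWIL1, CCNB1 and CYP11A1 (ENSDARG00000002347) among those named here higher at 30 dpf.

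Other tissues were also represented to different extents. In 30 dpf ovaries 1, 2 and 3 the 14 liver genes summed to 28.5, 219 and 158 CPM and the 10 muscle genes to 68.1, 178 and 191 CPM, against 187 to 272 and 453 to 1055 CPM at 25 dpf. In the testes the sums were 305 to 6493 CPM for liver and 480 to 43986 CPM for muscle. Of the 14 liver genes 11, and of the 10 muscle genes 7, were lower in both of the pair than in the other 3 ovaries. The same was so for 5 of 10 tested genes of epithelium and skin and 2 of 9 of kidney. For pancreas, leukocytes, nervous system, intestine, red blood cells and endothelium it was 1 gene each, of 5 to 7 tested. Over all genes tested, 25.4% were lower in both. None of the markers of liver, muscle, pancreas, blood, leukocytes, epithelium, kidney, endothelium, intestine or nervous system was among the 60, and the limit of 5 CPM had left only 13 of these 86 markers, with none of liver or muscle, open to the choice. The part of other tissues in the levels of the 60 genes was not tested.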

How the data were processed

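RNA of single gonads was extracted, reverse transcribed and amplified (Discover-sc WTA kit), and libraries were made by transposition (TruePrep), which does not keep the strand. The authors mapped reads to GRCz11 with HISAT2 2.0.5, removed duplicates with Picard and deposited whole-number counts per Ensembl gene from HTSeq 0.9.1 in reverse-stranded mode, without normalization. Tools and versions are those of the submitters' processing notes and the study's methods. Reads of genes that overlap on opposite strands cannot be told apart.

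CPM were counts divided by the total of the gonad times 1000000. Single genes were compared in edgeR 4.0.16 (glmQLFit and glmQLFTest, TMM, filterByExpr on 4 groups, 1 model of 12 gonads, adjusted p under 0.05) in R 4.3.3. DESeq2 1.42.0, other scalings, filters, pseudocounts, limits of CPM, a replicate block and leaving out each gonad were alternatives. The tests were checked on simulated data. In the comparison of ovaries by age 42% of genes with a 4-fold and 83% with a 16-fold change were recovered over 18768 genes, and in that of ovary and testis 54% and 92% over 18827 genes. Nothing says whether gonads of a group share a clutch or tank, so p-values measure the spread between these fish.

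Genes named are the first 15 by the ratio, gene families, the last 2 inside and first 2 outside, other members with a descriptive symbol, and of each list up to 6 called genes and the most abundant, of which a few are given. The 5 genes beside the 60 were named for their ratio after their values were seen. Some genes of the lists, marked where they appear, were also named after their values were seen. The members, lists and tests were chosen with earlier results of these data known. Symbols came from a table of Ensembl identifiers, some of them human-style names, and 23 members matched a RefSeq symbol, 21 of them protein coding. Sequences and coordinates were not used here, and the planned search for promoter motifs was not run.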

Additional observations from a re-analysis of the deposited data

Results flagged for a closer look

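Of 37 values examined in the 4 testes of 25 dpf, 5 had a gonad far from the other 3, and chance alone does this for about 1 in 20. Only that group has enough samples for the check. si:dkeyp-34c12.1, one of the 60 genes, was at 0.215 CPM in 25 dpf testis 1 and at 1.13 to 1.25 CPM in the others, a gap of a few counts. qdprb.3 was at 2.29 CPM in 25 dpf testis 3 and at 0 to 0.188 CPM in the others. The 7 intestine genes summed to 414 CPM in 25 dpf testis 2, against 33.0 to 97.9 CPM, and the 7 pancreas genes to 4622 CPM in the same gonad, against 296 to 870 CPM. The 10 muscle genes summed to 43986 CPM in 25 dpf testis 1, against 480 to 1317 CPM. Their part in the levels of the 60 genes was not tested.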

How the results depend on the processing

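The choice of the 60 genes depended on single gonads and on settings. Leaving out each of the other 10 gonads in turn kept 33 to 60 of the 60 genes, with 33 without 25 dpf ovary 2 and 36 without 30 dpf ovary 3. With limits of 2 and 10 CPM 41 and 46 genes were shared, with pseudocounts of 0.5 and 5 CPM 54 and 43, and with TMM-scaled CPM 53. The median log2 ratio of the 60, 0.91, became 1.14 and 0.39 with those pseudocounts and 1.07 with TMM-scaled CPM. For ovaries by age, DESeq2 called 115 genes higher and 67 lower where edgeR called 0, and leaving out each gonad gave 0 to 2 higher (2 without 25 dpf ovary 2, which leaves a lone ovary assumed to vary like the other groups) and 0 to 1 lower. For ovary against testis, leaving out each gonad gave 2679 to 3906 genes higher in ovaries and 1985 to 3279 higher in testes, with 1985 without 30 dpf ovary 1 and 2027 without ovary 2, and upper-quartile factors gave 2971 and 4069 in place of 3601 and 3188, with a median shift of the named genes' log2 differences of -0.19. Gonads with the same replicate number did not deviate together (15 pairs, mean correlation -0.00406), and the replicate block gave 0 and 0 genes by age and 3185 and 2635 by sex. For single named genes, 110 of the values by sex lost their call and none changed direction. Depth limits the 19 genes with 10 or fewer counts in the lower of the pair most.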
